A study of Sus scrofa with 15 samples.

Results

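The last sampled step of a culture time course of pig granulosa cells was examined, day 7 against day 4. It rested on 6 of the 15 arrays, chosen by their titles: the 3 of day 4 and the 3 of day 7. All arrays carried total RNA of pig (Sus scrofa) follicular granulosa cells on Affymetrix porcine genome arrays, and the other 9 arrays held days 0, 1 and 2 with 3 each. No treatment or genotype was given for any day, nor the age or number of the animals. The labels name the day 7 cells DFOG, for dedifferentiated follicular granulosa cells that had reached semiconfluence. Replicates are labelled biological without a word on their source, animals or cultures. The p-values therefore measure only the spread between these arrays.

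Granulosa cells line the ovarian follicle, convert androgens to estradiol under follicle-stimulating hormone and secrete inhibin. After ovulation they luteinize, which means that they take up cholesterol and make progesterone. Taken out of the follicle and grown on plastic, they spread, build actin stress fibres and a fibronectin matrix, and lose transcripts of the follicular state. The comparison asks which transcripts still differed between the fourth and the seventh day, once that change was well under way.

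Values are log2 intensities, and a change is the day 7 mean minus the day 4 mean with its standard error (SE) from limma. The lower quartile of the 6 arrays lay at 4.49 to 4.54 and their medians at 6.49 to 6.53. A level at or below the lower quartile is read as a bound. Arrays of day 4 correlated with each other at 0.963 to 0.988 and those of day 7 at 0.982 to 0.996, and the median SD of a probe set over 3 arrays was 0.21 on day 4 and 0.17 on day 7. Day 4 replicate 2 stood apart in its control probe sets. It had the largest 3′ minus 5′ difference of the 6 arrays in 24 of 40 control pairs, including all 6 pairs of actin, GAPDH and elongation factor transcripts and all 12 pairs of spiked bacterial dap, lys, phe and thr transcripts. In one of the actin pairs the difference was 2.12 on that array and 0.07 to 0.63 on the other 5. Its part in the results was not tested beyond leaving the array out. The counts of called probe sets and several list medians are also given without it.

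Few transcripts differed at this step. Of 23999 probe sets, 14 were called (0.0583%), which means a Benjamini-Hochberg adjusted p under 0.05 in limma and a change of at least 1 on the log2 scale. Of these, 11 were higher on day 7 (0.0458%) and 3 were lower (0.0125%). At an unadjusted p under 0.05 there were 1111 probe sets, or 4.63% of those tested. The step from day 2 to day 4 had 608 called probe sets, that from day 1 to day 2 had 729, and the first day in culture had 3001. The SD of all changes was 0.26 from day 4 to day 7, against 0.44, 0.46 and 0.78 at the steps before it, although the last step was the longest with 3 days between its arrays. Neighbouring steps share the arrays of a day and are therefore set side by side without a test.

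**Figure D1:**
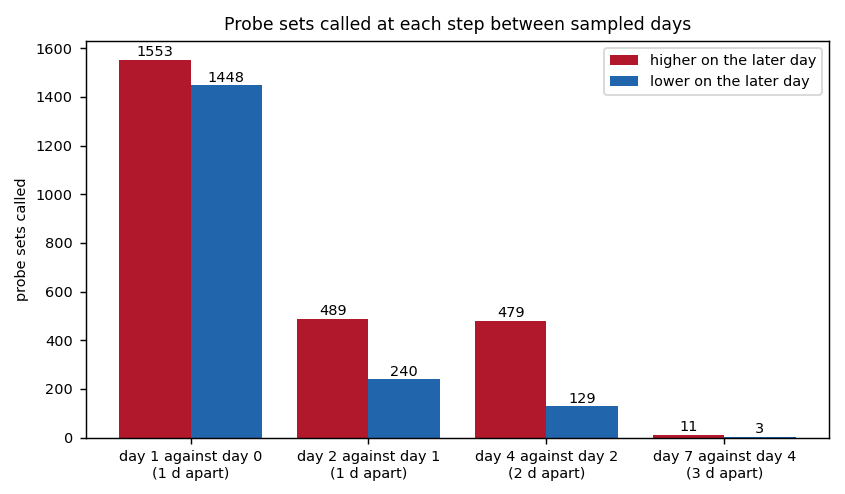
Bars count the probe sets called at each step between neighbouring sampled days (limma, adjusted p under 0.05 and a log2 change of at least 1), with those higher on the later day in red and those lower in blue. The first step has 1553 higher and 1448 lower, and the last has 11 and 3.

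A small number of calls does not show that the remaining probe sets stayed level, so the width of each estimate was examined. The 95% interval of the change lay wholly between -1 and 1 for 86.7% of probe sets, and wholly between -0.5 and 0.5 for 36.7%. The median SE was 0.20. Taken singly, most probe sets thus had intervals that exclude a doubling or halving of mean intensity, within the spread of these arrays. For most, a change of 0.5 remains possible. The share within 1 was 82.8% when the dimmest 40% of probe sets were left out. At or below the lower quartile a narrow interval bounds the signal of the probe set and not its transcript. The median of all changes was -0.00051.

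The genes called higher were ITGA8, C1S, A2M, TNNT1, LOXL4 and LYVE1, and SPINK5 was called lower. ITGA8, the integrin alpha 8 chain that pairs with beta 1 on smooth muscle and other mesenchymal cells, led the named rises. One of its probe sets read 5.50, 5.12 and 5.12 on day 4 in replicates 1 to 3 and 7.60, 7.38 and 7.04 on day 7. The lowest day 7 array was above the highest day 4 array, and the change was 2.09 ± 0.16 (SE, n = 3 a day), or 4.26-fold, with an adjusted p of 0.000106 in limma. Another ITGA8 probe set read 7.05, 6.41 and 6.60 against 8.65, 8.91 and 8.24, a change of 1.92 ± 0.20 (limma adjusted p = 0.00227). The remaining one, the brightest and the one that stood for the gene in the lists, changed by 1.81 ± 0.33 and was not called (limma adjusted p = 0.117, and 0.0464 with replicate number as a block). The means of the first of these probe sets on days 0, 1 and 2 were 3.38, 3.35 and 3.30, below the lower quartile.

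C1S, a serine protease of the classical complement pathway, read 4.46, 5.44 and 5.32 on day 4 and 7.36, 6.56 and 6.93 on day 7. It rose by 1.88 ± 0.24 (limma adjusted p = 0.0108), with no overlap between days, and its lowest day 4 array was just below the lower quartile. A2M, which encodes the broad protease inhibitor alpha-2-macroglobulin, read 5.47, 5.39 and 5.76 and then 7.33, 7.74 and 6.83, a rise of 1.76 ± 0.23 (limma adjusted p = 0.0108). The days did not overlap in A2M either, but its other 2 probe sets had lower means and changes of 0.26 ± 0.18 and -0.05 ± 0.32. LOXL4, a lysyl oxidase-like enzyme that crosslinks collagen and elastin, read 9.17, 9.23 and 9.17 on day 4 and 10.50, 11.22 and 10.38 on day 7. It rose by 1.51 ± 0.22 (limma adjusted p = 0.0208), without overlap. Its other 2 probe sets, with lower means, changed by 0.14 ± 0.20 and 0.11 ± 0.16. The LOXL4 mean was 8.15 on day 0 and 6.85 on day 2, so its course went down before it went up.

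TNNT1, the slow skeletal muscle troponin T, read 5.91, 6.71 and 6.67 on day 4 and 8.11, 8.45 and 7.96 on day 7. It rose by 1.75 ± 0.27 (limma adjusted p = 0.0363), with day means of 5.44 on day 0 and 5.31 on day 2. LYVE1, a hyaluronan receptor known from lymphatic vessels and some macrophages, read 3.46, 4.07 and 4.43 on day 4 and 5.47, 5.31 and 5.62 on day 7. All 3 day 4 arrays lay below the lower quartile, so its rise of 1.49 ± 0.20 (limma adjusted p = 0.0149) is a lower bound, and its other 2 probe sets changed by 0.69 ± 0.21 and 0.12 ± 0.14. SPINK5, a Kazal-type inhibitor of skin proteases, was the one named gene called lower. It read 6.63, 7.80 and 6.92 on day 4 and 5.28, 5.55 and 5.58 on day 7, and fell by 1.65 on the log2 scale (SE 0.26, limma adjusted p = 0.0342). SPINK5 had a mean of 3.95 on day 0 and 9.07 on day 2, so its day 7 level lay between its fresh and its day 2 level. ITGA8 and LYVE1 were singled out after their values were seen, because the probe sets called were not the brightest of these genes.

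The other 6 called probe sets had no gene in the annotation, 4 of them higher and 2 lower. The largest called rise was in one of these, which read 6.88, 6.96 and 6.71 on day 4 and 8.96, 9.50 and 8.74 on day 7, from a mean of 3.06 on day 2. It rose by 2.21 ± 0.19 (limma adjusted p = 0.000306). Another gave the largest called fall, from 6.76, 7.63 and 6.92 to 3.38, 5.19 and 4.71. It fell by 2.67 on the log2 scale (SE 0.39, limma adjusted p = 0.0212), a lower bound on the fall since day 7 replicate 1 lay below the lower quartile. All 14 called probe sets had arrays that did not overlap between days, as did 10.6% of all probe sets. Without day 4 replicate 2, 4 probe sets were called (0.0167%) and all 14 kept their sign. Those 4 were C1S (limma adjusted p = 0.018), both called ITGA8 probe sets and the unnamed one with the largest called rise, all higher on day 7, and A2M, LOXL4, TNNT1, LYVE1 and SPINK5 were not among them (limma adjusted p = 0.0795 to 0.102). With each of the 6 arrays left out in turn, C1S, both ITGA8 probe sets and that unnamed one kept their call in all 6 runs, and A2M lost it without day 4 replicate 2. LYVE1 lost it without day 4 replicate 2 or day 7 replicates 1 or 3, and LOXL4 without any one day 4 array or without day 7 replicate 2. SPINK5 lost it without any array but day 4 replicate 1, and TNNT1 without any of the 6 (limma adjusted p = 0.0691 to 0.194). The unnamed fall was not called without day 4 replicates 2 or 3 or day 7 replicate 3. The fit on the 6 arrays alone called 0 probe sets, with 1240 at an unadjusted p under 0.05.

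**Figure D2:**
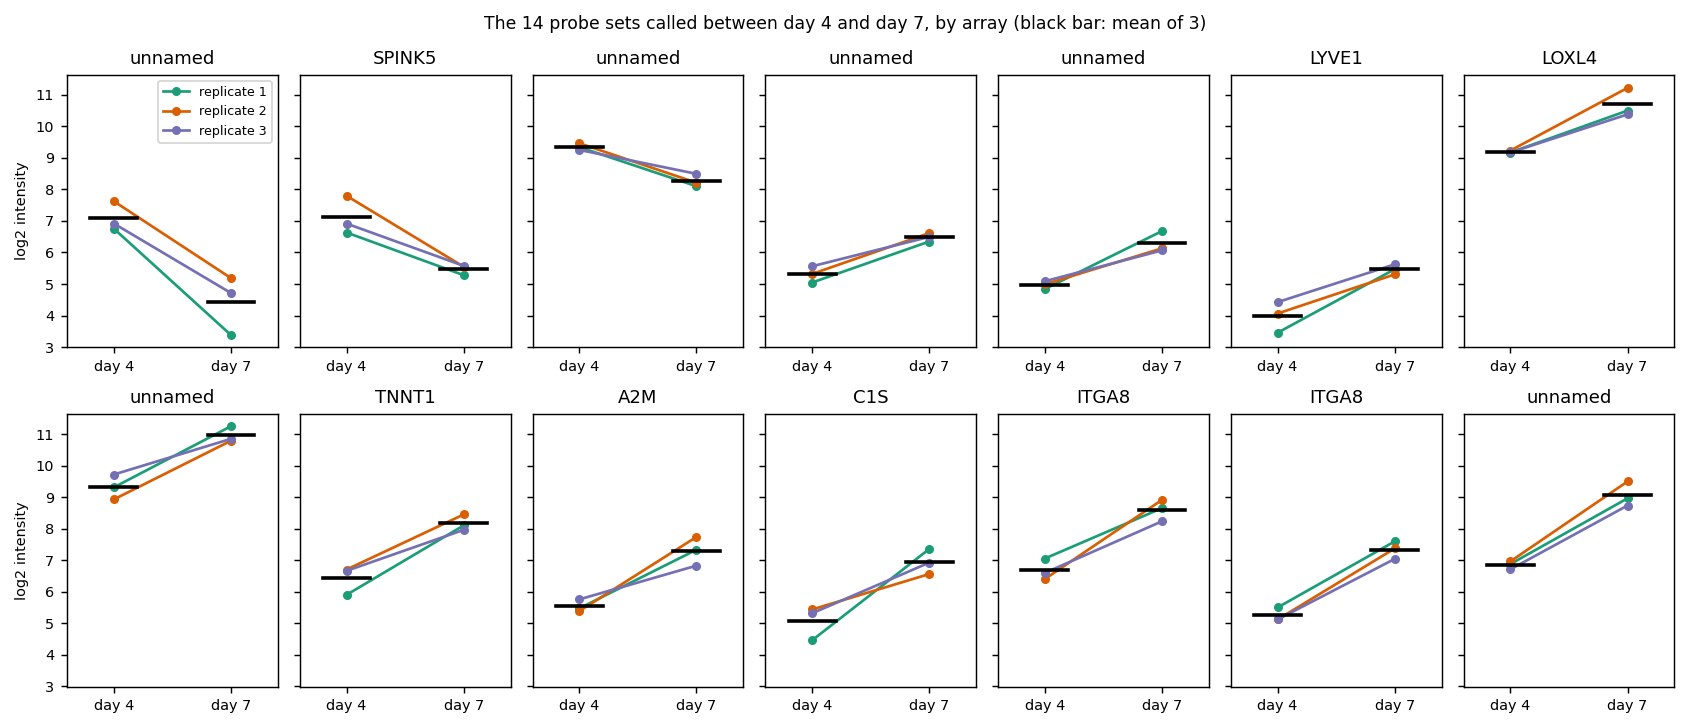
Each panel shows 1 of the 14 called probe sets, with log2 intensity on days 4 and 7, lines joining arrays of the same replicate number and black bars at the means of 3 arrays. Every line rises in the 11 panels of higher probe sets and falls in the 3 of lower ones. LYVE1 starts at 3.46 to 4.43 and LOXL4 at 9.17 to 9.23.

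Differences matched by replicate number gave a second view. Their SD over all probe sets was 0.37 in pair 1, 0.43 in pair 2 and 0.26 in pair 3. Pair 2, which holds the array that stood apart, had 675 differences of at least 1 upward and 244 downward. Pair 3, the pair with the smallest SD, had 62 and 57. The matched difference was at least 1 in one direction in all 3 pairs for 51 probe sets (0.213%), 31 higher and 20 lower, and 11 of the 14 called probe sets were among them. With pairs 1 and 3 alone the count was 66, with 42 higher and 24 lower. A difference of the same sign in all 3 pairs was found in 33.7% of all probe sets.

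With replicate number as a block the limma fit called 41 probe sets (0.171%), 24 higher (0.1%) and 17 lower (0.0708%), against 14 without it. With the block and without day 4 replicate 2 it called 10, all higher. In the block fit with no array left out, all 14 kept their call and 27 were added. No overlap between days was found in 38 of those 41. The additions with a gene not called otherwise were THY1, CNN1, PLAU, CRYAB, AEBP1, C1QTNF3, PLIN2 and APCDD1. THY1, a surface protein of fibroblasts and other stromal cells, read 8.27, 8.97 and 9.03 on day 4 and 9.79, 9.65 and 10.47 on day 7, a difference of 1.21 ± 0.24 (limma adjusted p = 0.163, with the block 0.0247). CNN1, the calponin of smooth muscle, read 10.19, 9.32 and 10.04 and then 11.41, 10.91 and 11.08, a difference of 1.28 ± 0.25 (limma adjusted p = 0.144, with the block 0.00858). In both genes every day 7 array was above every day 4 array.

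PLAU, the urokinase-type plasminogen activator, differed by 1.03 ± 0.22 (with the block, limma adjusted p = 0.00957). CRYAB, a small heat shock chaperone, differed by 1.60 ± 0.33 (0.0468 with the block), with day 7 arrays at 8.65, 7.56 and 6.96. AEBP1, a secreted collagen-binding protein, differed by 1.27 ± 0.31, and C1QTNF3, a secreted relative of complement C1q, by 2.13 ± 0.45. Day 4 replicate 1 of C1QTNF3 lay below the lower quartile, at 3.84, so its difference is a lower bound. In the other direction was PLIN2, the coat protein of lipid droplets, at 10.41, 10.25 and 10.18 on day 4 and 8.81, 8.86 and 8.75 on day 7. PLIN2 had the tightest arrays of the added genes, and its difference was -1.47 ± 0.28 (limma adjusted p = 0.14, with the block 0.0468). APCDD1, an inhibitor of Wnt signaling, differed by -1.03 ± 0.53 (with the block, limma adjusted p = 0.0399). The days overlapped in APCDD1, since its values were 7.48, 8.65 and 8.79 and then 6.51, 7.26 and 8.08. With the block and without day 4 replicate 2, THY1 and CNN1 were called and the others of these genes were not. CNN1, AEBP1, C1QTNF3 and APCDD1 were picked after their values were seen.

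Some of the largest matched differences belonged to genes that neither fit called. LHCGR, the receptor for luteinizing hormone, read 7.51, 7.32 and 7.98 on day 4 and 5.80, 5.90 and 6.02 on day 7, without overlap. Its difference was -1.69 ± 0.34 (limma adjusted p = 0.163, with the block 0.0772), from a mean of 12.06 on day 0. CYP1A1, a cytochrome P450 induced through the aryl hydrocarbon receptor, differed by -2.11 ± 0.37 (limma adjusted p = 0.0946) with matched differences of -2.63, -2.44 and -1.25. TRH, the thyrotropin-releasing hormone precursor, read 9.65, 11.20 and 10.50 and then 7.79, 9.19 and 9.32, with a mean of 4.92 on day 0. CYP1A1 and TRH were chosen after their values were seen.

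In the other direction, COL1A2, a chain of type I collagen, had matched differences of 1.95, 1.78 and 1.08 (change 1.60 ± 0.36, limma adjusted p = 0.246). FAP, the fibroblast activation protease, had 1.52, 1.60 and 1.44, and its day 4 replicate 1 array was at 3.96, below the lower quartile. FABP4, a fatty acid carrier of adipocytes and other cells, had 2.45, 1.68 and 1.13 from day 4 levels of 4.19 to 4.83. Its day 4 replicate 3 array lay below the lower quartile and replicate 2 near it, so the last of these differences is a lower bound. These 3 genes had day 7 arrays that were all above those of day 4, and none passed the adjusted p in the fit with or without the block. COL1A2 was also chosen after its values were seen.

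The gene lists hold 856 measured genes in 43 lists, each gene read by its brightest probe set. Of these genes 2 were called (0.234%), LOXL4 in fibrillar and stromal matrix and C1S in inflammatory mediators, while 5 of all 6765 named genes were called (0.0739%). With the block 8 list genes were called (0.935%), against 0.207% of all named genes. The medians of the lists ran from -0.26 to 0.30. Over all named genes 89.2% had intervals within 1 of no change and 39.7% within 0.5, 18.3% were higher in all 3 pairs and 17.3% were lower, and the counts of each list are read against these. In bulk RNA, fewer cells of a type and less RNA per cell cannot be told apart, which holds for every list below.

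Among matrix and stromal genes LOXL4 rose, while LUM and DCN differed more among the day 4 arrays than among those of day 7. Of 31 measured genes of fibrillar and stromal matrix, 1 rose and 0 fell, the median was 0.13, and 13 had intervals within 1 of no change. All 3 matched differences were upward in 13 and downward in 3. LUM, the small proteoglycan lumican, read 4.29, 7.36 and 8.34 on day 4 and 9.08, 9.31 and 8.75 on day 7. The day 4 arrays of LUM were spread over more than 4 log2 units and those of day 7 over less than 1, which gave a change of 2.38 ± 0.70 (limma adjusted p = 0.557). With replicate 1 below the lower quartile on day 4, that value is a bound too. DCN, the related proteoglycan decorin, read 7.97, 10.63 and 11.46 and then 11.45, 12.08 and 12.04. Here too the lowest array by far was day 4 replicate 1, and the change of 1.83 ± 0.73 was not called (limma adjusted p = 0.919). VCAM1, a cell adhesion receptor for leukocyte integrins, read 8.02, 8.45 and 9.92 and then 11.33, 10.27 and 10.77 (change 1.99 ± 0.57, limma adjusted p = 0.523).

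The other matrix genes named here were not called, and their intervals differed in width. FN1, fibronectin, read 13.45, 13.91 and 13.62 on day 4 and 13.38, 13.70 and 13.76 on day 7, with an interval from -0.82 to 0.73. COL15A1, a collagen of basement membrane zones, read 11.55, 12.04 and 11.95 and then 12.58, 12.68 and 12.71, and its change of 0.82 ± 0.49 was not called. LOX, the founding lysyl oxidase, read 12.15, 9.96 and 10.55 and then 12.72, 11.67 and 11.08, with an interval from -0.31 to 2.18 that leaves its course undetermined. VCAN, the large proteoglycan versican, was lower in all 3 pairs, with a difference of -0.75 ± 0.18 (limma adjusted p = 0.33). Of 6 measured basement membrane genes 0 were called, with a median of -0.26, and -0.08 without day 4 replicate 2. Of 22 matrix proteases and inhibitors 0 were called, and PLAU was called with the block. MMP1, an interstitial collagenase, had the widest interval among the named genes, from -3.05 to 1.13, with 11.67 on day 4 replicate 1 and 8.03 and 8.79 on the other 2.

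**Figure D3:**
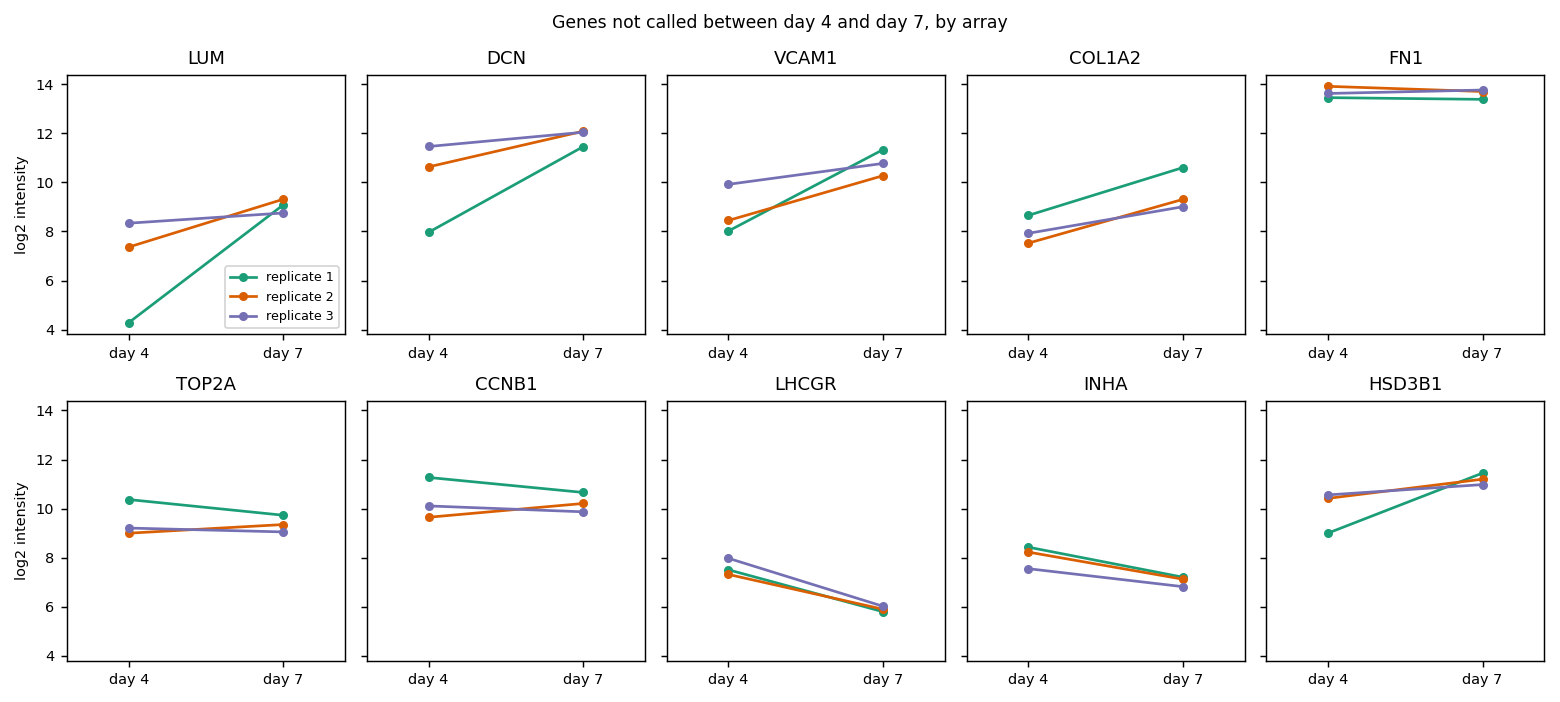
Each panel shows log2 intensity on days 4 and 7 for 1 gene that was not called, with lines joining arrays of the same replicate number. In LUM and DCN the line of replicate 1 starts far below the other 2, at 4.29 and 7.97, and meets them on day 7. In TOP2A and CCNB1 the line of replicate 2 goes up while the other 2 go down.

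Genes of granulosa identity had a median change of -0.09 over 24 measured members, with 0 called. Of these, 13 had intervals within 1 of no change. All 3 matched differences were downward in 9 and upward in 4. INHA, the inhibin alpha subunit, read 8.43, 8.23 and 7.55 on day 4 and 7.21, 7.13 and 6.82 on day 7. The days did not overlap, but the change of -1.02 ± 0.35 did not pass (limma adjusted p = 0.76, with the block 0.0749). FST, the activin-binding protein follistatin, read 8.92, 9.19 and 8.67 and then 8.32, 8.49 and 7.81, a difference of -0.72 ± 0.21 (limma adjusted p = 0.523, with the block 0.0341) that is also under the minimum change. FSHR, the receptor for follicle-stimulating hormone, read 6.52, 6.78 and 7.77 and then 5.36, 6.14 and 6.82. The FSHR days overlapped, and its interval ran from -1.82 to -0.02.

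The granulosa transcription factors NR5A1, NR5A2 and FOXL2 had intervals within 1 of no change. NR5A1, or SF-1, which drives steroidogenic genes, read 7.67 to 8.37 on day 4 and 7.86 to 8.22 on day 7 (interval -0.41 to 0.38). NR5A2, its relative LRH-1, had an interval from -0.98 to 0.43, and FOXL2, which holds the granulosa fate, from -0.04 to 0.57. FOXL2 read 5.42 to 6.01 on the 6 arrays, below their medians, and had a mean of 5.89 on day 0 as well, so its probe set is low in fresh cells too. INHBA, the activin beta A subunit, had an interval from -0.30 to 0.34. HSD17B1, which makes estradiol from estrone, read 5.34 to 6.17 over the 6 arrays, after a mean of 13.52 on day 0. CYP19A1, the aromatase, read 4.79 to 5.29 and AMH, the anti-Mullerian hormone, 4.04 to 5.02, both below the array medians. The CYP19A1 mean was 5.255 on day 0, so this probe set too was low in fresh cells. In the list as a whole, 0 of 24 members were below the lower quartile on all 6 arrays and 12 were above the array medians on all 6.

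Of 22 steroid synthesis genes 0 were called and the median was 0.01. Intervals within 1 of no change were found in 19, or 86.4%, close to the 89.2% of all genes. CYP11A1, which cleaves the cholesterol side chain, read 8.62, 10.72 and 10.47 on day 4 and 11.58, 10.38 and 10.94 on day 7. HSD3B1, which makes progesterone from pregnenolone, read 9.01, 10.42 and 10.56 and then 11.45, 11.20 and 10.98. In both genes day 4 replicate 1 was the lowest array and day 7 replicate 1 the highest, and neither change was called (1.03 ± 0.71 and 1.21 ± 0.43). STAR, which carries cholesterol into mitochondria, read 4.23 to 5.00 and was near the lower quartile on both days, after a mean of 5.39 on day 0. Of 10 genes of luteinization and cumulus expansion 0 were called and 3 were lower in all 3 pairs. RGS2, a brake on G protein signaling, was among them with a difference of -1.13 ± 0.51 (limma adjusted p = 1).

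Of 38 genes of the actin cytoskeleton 0 were called, and 33 (86.8%) had intervals within 1 of no change, near the share of all genes. Their median was 0.12, and 0.03 without day 4 replicate 2. ACTA2, the smooth muscle actin, read 13.82 to 14.09 on day 4 and 14.21 to 14.26 on day 7, with an interval from -0.42 to 0.95. TAGLN, the smooth muscle protein transgelin, read 13.28 to 13.79 and then 13.61 to 13.67, and VIM, vimentin, 13.86 to 14.17 and then 13.89 to 14.06. Their intervals ran from -0.33 to 0.67 and from -0.31 to 0.28. MYL9, a myosin light chain of smooth muscle, was higher in all 3 pairs by a mean of 0.60 ± 0.15 (limma adjusted p = 0.349).

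Of 13 measured smooth muscle and pericyte genes 0 were called, CNN1 was called with the block, and 5 (38.5%) had intervals within 1 of no change. ACTG2, the smooth muscle gamma actin, read 11.90, 10.07 and 10.51 and then 12.92, 12.33 and 11.84, a difference of 1.53 ± 0.46. RGS5, a G protein regulator found in pericytes, read 11.14, 12.44 and 12.44 and then 9.26, 10.81 and 11.23. The RGS5 days overlapped by a narrow margin, and its difference of -1.57 ± 0.71 was not called (limma adjusted p = 1). Of 17 genes of integrins and focal adhesion 0 were called by their brightest probe set, and ITGA8 and THY1 were called with the block.

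Mitosis genes gave medians of opposite sign in different replicates, and the pair medians of DNA replication genes ran from -0.53 to 0.02. The median of 33 measured mitosis genes was -0.15, with -0.57 in pair 1, 0.30 in pair 2 and -0.20 in pair 3. It was -0.40 without day 4 replicate 2 and 0.14 without day 4 replicate 1, and negative without any other array. The upward pair 2 holds the array that stood apart in its controls, and the part of any 1 array in these signs was not tested beyond leaving it out. None of these genes was called, and 31 had intervals within 1 of no change. Downward differences in all 3 pairs were found in 9 mitosis genes and upward ones in 0. TOP2A, the topoisomerase of dividing cells, read 10.37 on day 4 in replicate 1 and no more than 9.21 in the other 2, and 9.73, 9.35 and 9.05 on day 7. CCNB1, the cyclin of mitotic entry, read 11.27, 9.65 and 10.11 and then 10.66, 10.21 and 9.87. On both days replicate 1 was the highest array in these genes. For 28 genes of DNA replication the median was -0.24, with -0.53, 0.02 and -0.18 in the pairs, and it was -0.33 without day 4 replicate 2 and -0.09 without day 4 replicate 1. Of them 12 were lower in all 3 pairs and 1 was higher, and 0 were called. PCNA, the sliding clamp of the polymerases, read 10.67, 9.86 and 9.92 and then 9.74, 9.84 and 9.53 (interval -0.89 to 0.00). Among 18 cell cycle inhibitors and D cyclins the median was 0.20, and CDKN1A, or p21, differed by 0.71 ± 0.46.

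Lists of core cell functions held many genes with narrow intervals. All 59 measured cytosolic ribosomal protein genes had intervals within 1 of no change and 54 within 0.5, or 91.5%, against 39.7% of all genes. Their median was 0.03, and the extremes were -0.10 and 0.26, the latter in RPLP1, an acidic protein of the ribosomal stalk. All 31 genes of the respiratory chain and ATP synthase were within 1 and 23 within 0.5, with a median of 0.06. Of 33 proteasome genes 31 were within 1 and 19 within 0.5. The exception at the top was PSMB8, an immunoproteasome subunit induced by interferon, at 5.86, 5.55 and 5.55 and then 7.16, 6.38 and 6.17 (0.92 ± 0.28, limma adjusted p = 0.583). The list median of the ribosomal protein genes ran from 13.36 to 13.49 over the 6 arrays.

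No gene was called in the lists of cholesterol synthesis, the amino acid response, the interferon response and TGF-beta signaling. The highest of the list medians was that of 17 cholesterol synthesis and uptake genes, 0.30, with 0.63, 0.07 and 0.22 in the pairs and 10 genes higher in all 3. INSIG1, the sterol-regulated brake on SREBP processing, read 7.84, 8.73 and 9.20 and then 9.72, 9.75 and 9.98 (1.23 ± 0.37, limma adjusted p = 0.593). FDPS, which makes farnesyl diphosphate, differed by 0.62 ± 0.25. For 19 genes of the amino acid response and tRNA charging the median was 0.27, with -0.01, 0.33 and 0.44 in the pairs. PHGDH, the entry enzyme of serine synthesis, had one of the smallest errors among them, with a difference of 0.62 ± 0.13 (limma adjusted p = 0.169).

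Among 38 genes of interferon response and antigen presentation the median was 0.18, 14 were higher in all 3 pairs and 3 lower, and 0 were called. DDX58, the RNA sensor RIG-I, read 6.30, 6.21 and 6.44 on day 4 and 7.82, 6.86 and 7.43 on day 7 (1.06 ± 0.21, limma adjusted p = 0.163). Of 38 inflammatory mediators C1S rose and 0 fell, and 14 were higher in all 3 pairs. SOD2, the mitochondrial superoxide dismutase, differed by 0.76 ± 0.30, and CCL2, a monocyte chemokine, by 0.55 ± 0.58. For 28 genes of TGF-beta, BMP and activin signaling the median was -0.18, 11 were lower in all 3 pairs and 3 higher. TGFB2 differed by -0.91 ± 0.47 and BAMBI, a decoy receptor, by -0.78 ± 0.35. Of 26 adipogenic genes 0 were called, and PLIN2 was called lower with the block while FABP4 had the opposite sign. PPARG, the adipogenic nuclear receptor, read 6.74, 5.12 and 5.48 and then 7.06, 5.55 and 5.57.

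**Figure D4:**
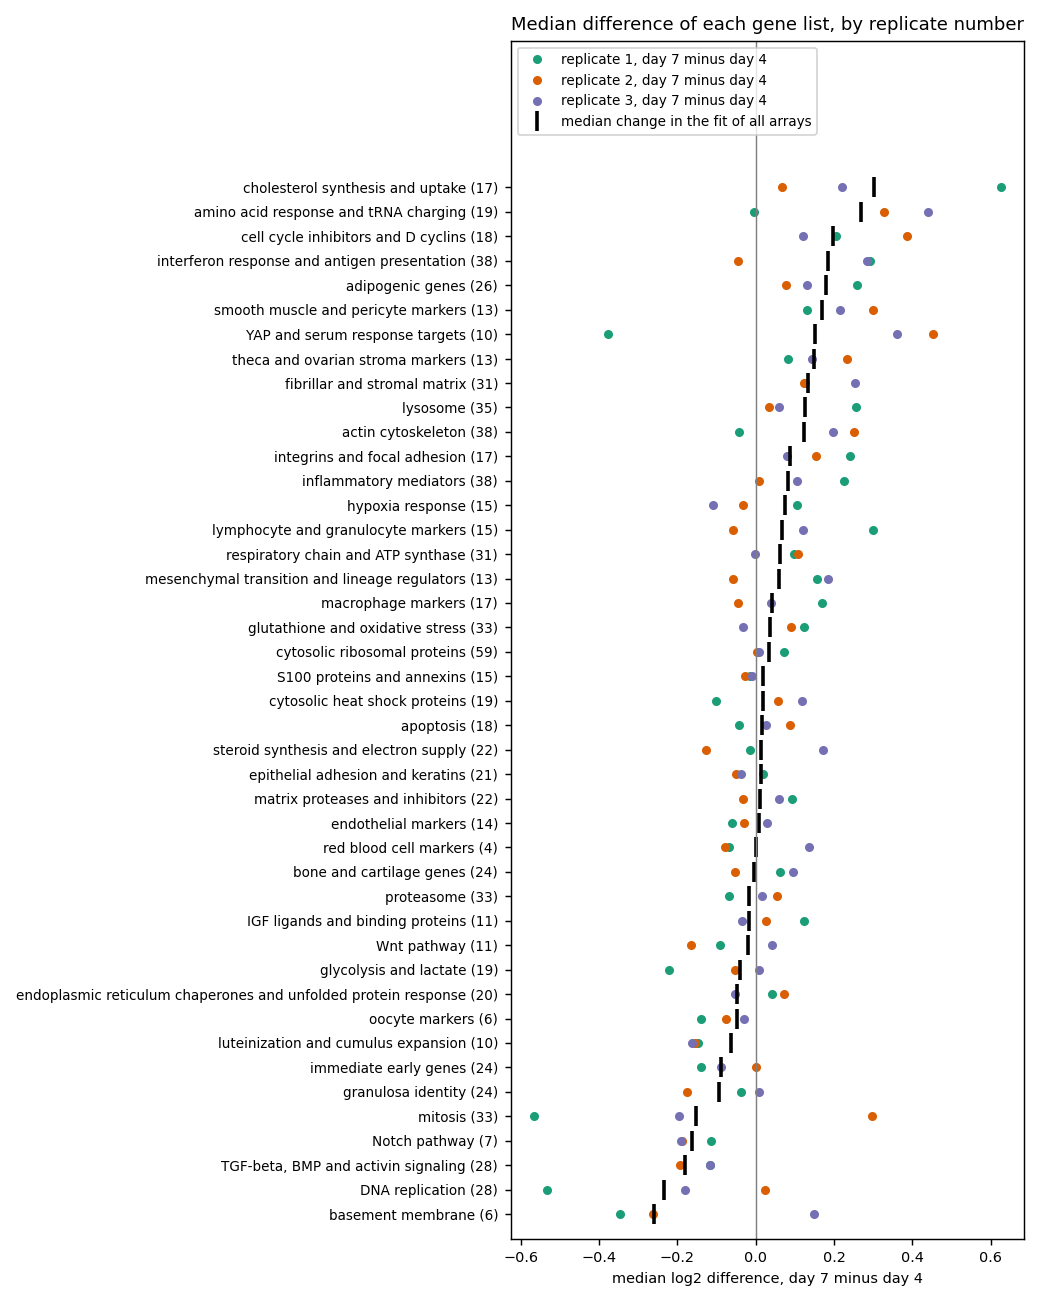
For each of the 43 gene lists (measured genes in brackets), points give the median log2 difference, day 7 minus day 4, within each replicate number, and black ticks the median change in the fit of all arrays. Ribosomal proteins sit at 0.03 with all 3 points near 0, and mitosis genes spread from -0.57 to 0.30.

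Genes that had moved by day 2 were followed into the last step, since day 2 against day 0 shares no array with day 7 against day 4. Both steps came from the same fit with a shared spread for each probe set. Their calls and interval widths are therefore linked and not independent. Of 1844 probe sets called higher on day 2 than on day 0, 1 was called higher and 2 were called lower at the last step, and 66.4% had intervals within 1 of no change. Their median late change was -0.07, with -0.09, -0.11 and -0.07 in the pairs. Of 1462 called lower on day 2, 1 was called higher and 0 lower, 75.0% had intervals within 1, and the median was -0.04. Both shares within 1 were below the 86.7% of all probe sets and the 82.8% found without the dimmest 40%. With the block, 12 of the early risers were called lower and 4 higher, and of the early fallers 0 were called lower and 2 higher. Over all 23999 probe sets the block called 17 lower and 24 higher.

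Of the 10 named genes with the largest rise by day 2, 0 were called at the last step and 3 had intervals within 1 of no change. FHL2, a LIM-domain protein that works with serum response factor at actin-linked genes, read 11.77 to 12.20 on day 4 and 11.91 to 12.25 on day 7, after 4.09 on day 0. LAMB1, the laminin beta 1 chain, read 11.12 to 11.59 and then 11.24 to 11.29. KHDRBS3, an RNA-binding protein, read 10.15, 9.73 and 9.35 and then 8.65, 9.50 and 8.79, a difference of -0.77 ± 0.24 (limma adjusted p = 0.649). PCOLCE2, an enhancer of procollagen processing, leaned upward, with 0.63 ± 0.22. Of the 10 with the largest fall, 0 were called and 5 were within 1. MAL2, a protein of epithelial membrane traffic, read 2.81 to 3.44 over the 6 arrays and NEBL, nebulette, which binds actin, 3.28 to 3.76. Both thus lay below the lower quartile, where a further fall may not be seen. DAPL1 read 4.82 to 5.63 and had an interval from -2.23 to 1.61.

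**Figure D5:**
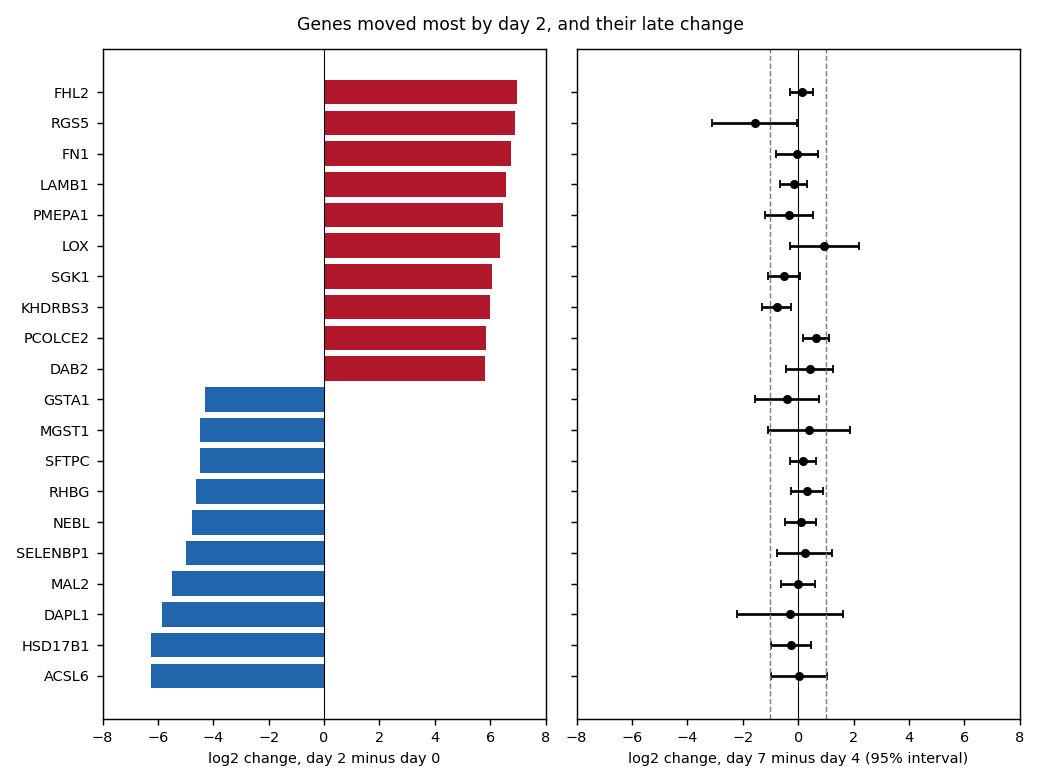
The left panel gives the log2 change from day 0 to day 2 for the 10 named genes with the largest rise (red) and the 10 with the largest fall (blue). The right panel gives their change from day 4 to day 7 as a point with its 95% interval, with dashed lines at -1 and 1. FHL2 and LAMB1 have narrow intervals at 0, and RGS5 lies lowest at -1.57.

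Markers of other cells were examined on the same arrays, since A2M, C1S and LYVE1 are also made by cells other than granulosa cells. Of 14 endothelial markers 0 were called, 13 had intervals within 1 of no change, 4 were below the lower quartile on all 6 arrays and 3 were above the array medians on all 6. CDH5, the cadherin of endothelial junctions, read 3.75 to 4.07 and KDR, a receptor for VEGF, 3.29 to 3.96, both below that quartile, while PECAM1 read 6.89 to 7.40. ERG, a transcription factor of endothelial cells, read 8.16, 8.35 and 8.19 on day 4 and 6.97, 7.78 and 8.22 on day 7, after a mean of 4.23 on day 0. The log2 of the summed intensities of the list ran from 10.02 to 10.15 on the day 4 arrays and from 9.80 to 10.18 on those of day 7. Of 17 macrophage markers 0 were called and 6 were below the lower quartile on all 6 arrays. Their summed level ran from 8.89 to 9.06 on day 4 arrays and from 8.95 to 9.23 on day 7 arrays. CD163, a scavenger receptor of macrophages, read 4.20 to 4.55 and CD14 5.65 to 6.60.

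For 13 theca and ovarian stroma markers, a list that holds LUM and LHCGR, the summed level ran from 14.12 to 14.37 on day 4 arrays and from 14.61 to 14.68 on day 7 arrays, without overlap. Such a sum follows the brightest members, and on day 7 LUM read at most 9.31 and LHCGR at most 6.02. The list median was 0.15, and 0.01 without day 4 replicate 2. CYP17A1, the androgen-making enzyme of theca cells, read 4.77 to 5.55, and INSL3, a peptide of theca cells, 5.32 to 5.94. None of the 13 was called, and the part of such cells in the matrix genes was not tested. Of 15 lymphocyte and granulocyte markers 7 were below the lower quartile on all 6 arrays and 0 were called. Among 21 epithelial adhesion genes and keratins 0 were called, and EPCAM, an epithelial adhesion molecule, read 4.54, 6.25 and 6.04 and then 3.69, 4.13 and 4.79 (-1.41 ± 0.42, limma adjusted p = 0.571, a bound since 2 day 7 arrays lay below the lower quartile). The lists of 4 red blood cell and 6 oocyte markers had 0 called, with all intervals within 1 of no change.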

How the data were processed

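Granulosa cell RNA was measured on 15 arrays, 3 on each of days 0, 1, 2, 4 and 7. The deposited values are log2 intensities that the authors made with RMA (robust multi-array average), as named in the submitters' processing notes with no version. They ran from 2.29 to 14.9, and 0 pairs of arrays were identical. RMA evens out the distribution of every array, so a shift shared by most transcripts cannot be seen. Precision is limited by having 3 arrays a day.

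Of 24123 probe sets, 124 controls were left out of the tests. Of the other 23999, 10069 had 1 symbol in the platform annotation (6765 genes), 198 had several and 13732 had none. A gene was read by its probe set with the highest mean over all arrays. No genome build or sequence was used, so no positions are given.

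A linear model with 1 mean per day was fitted to the 15 arrays in limma 3.58.1 (R 4.3.3). It was also run on simulated arrays with independent errors. That run cannot show how the model behaves with linked replicates or an array that stands apart. Probe sets with a Benjamini-Hochberg adjusted p under 0.05 and a change of at least 1 were called. Genes named were up to 15 called rises and falls without overlap, the called members of each list or else its 2 largest changes, the 10 largest rises and falls on day 2 against day 0, and genes fixed by name. The comparison, the lists and the named genes were chosen with earlier results of these data known.

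To check whether replicate numbers pair arrays, deviations from the day means were correlated between days 4 and 7, which gave 0.727, 0.457 and 0.416 for numbers 1 to 3. All passed 0.1, so a fit with the number as a block is quoted wherever it changes a call. Day 4 replicate 2 correlated slightly better with day 7 replicate 3 (0.473) than with its own number, so the correlations set replicate 1 apart more than they pair the other 2. Nothing in the labels says what the numbers mark. Alternatives were another normalization, a filter on dim probe sets, gene means, only the 6 arrays, other eBayes settings, the block and leaving out each array.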

Additional observations from a re-analysis of the deposited data

How the results depend on the processing

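The count of 14 called probe sets became 4 when the dimmest 40% of probe sets were left out and 0 with only the 6 arrays compared. It became 41 with the replicate block and 55 with replicates 2 and 3 of every day only, an alternative chosen after seeing the data. Leaving out 1 array at a time gave 4 to 14, lowest without day 4 replicate 2 and next 9 without day 7 replicate 2. Averaging a gene's probe sets tested only named genes, so its count is not set against the 14. It called 6 genes, against 5 of 6765 when each gene was read by its brightest probe set. The 2 list genes called became 1 without the dimmest 40%, 0 with only the 6 arrays, 8 with the replicate block, 4 with the block and without day 4 replicate 2, 12 with replicates 2 and 3 only, and 1 to 4 with 1 array left out. A second quantile normalization, cyclic loess and other eBayes settings each gave 14 called probe sets, and shifting arrays to the same median gave 12. A2M, C1S, LOXL4, SPINK5 and TNNT1 kept their sign under every alternative run. LOXL4 and A2M were not called with the mean of their probe sets (0.59 and 0.66). The share of intervals within 1 of no change was 80.3% to 93.0% over the alternatives. The block changed the calls of ITGA8 by its brightest probe set, THY1, CNN1, PLAU, CRYAB, AEBP1, C1QTNF3, PLIN2 and APCDD1, and of no other named gene. LHCGR, INHA and FST, also given with it, stayed uncalled. Array weights were not run because their estimation did not converge. For genes below the lower quartile of 4.49 to 4.54 a further fall of the transcript may not be seen in full.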
